A study of Mus musculus with 6 samples.

Results

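Arginine metabolism is described here through 5 genes, chosen by name from a table of 22800 gene symbols. They are Nos2, Arg1, Arg2, Ass1 and Slc7a2. All 5 were in the table and all 5 passed the filter on low values, which required 1 FPKM in at least 3 libraries and left 10405 genes for testing. FPKM is the number of sequenced fragments scaled to transcript length and to library size, so levels can be set side by side between genes. RNA was measured in cells of mouse bronchoalveolar lavage fluid, a saline wash that recovers cells from the air spaces. The control group was 3 libraries of vehicle-treated mice (replicates 2, 3 and 4), and the other group 3 libraries of mice given 20 µg of sulfatide by intraperitoneal injection (replicates 1, 2 and 3). Sulfatide is a sulfated glycolipid that CD1d presents to type II natural killer T cells. The labels name no strain, age or genotype, no time between injection and lavage, and leave unsaid whether lung ischemia and reperfusion, which the series title names, was performed on these mice. They also do not say whether each library came from a separate animal, so the spread behind each p-value may be technical.

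Arginine is the shared substrate of rival enzymes in macrophages. Inducible nitric oxide synthase, encoded by Nos2, turns it into nitric oxide and citrulline, while arginase turns it into ornithine and urea. Arg1 encodes the cytosolic arginase and Arg2 the mitochondrial one. Slc7a2 encodes a cationic amino acid transporter that brings arginine into the cell, and Ass1 encodes argininosuccinate synthase, which with argininosuccinate lyase rebuilds arginine from citrulline. High Nos2 is the textbook sign of classically activated macrophages and high Arg1 that of alternatively activated ones in the mouse.

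In sulfatide libraries both arginase transcripts were higher than in vehicle libraries (Arg1 2.71-fold, Arg2 2.99-fold), Slc7a2 was 2.05-fold lower, and Nos2 did not pass the test. The rise of arginase transcripts came without a called change of the synthase that competes for the substrate, and with less transcript of the arginine transporter gene Slc7a2. Of the 5 members, 2 were called higher, 1 was called lower and 2 did not pass (limma, adjusted p below 0.05). Over all genes tested, 8.31% were called higher and 10.4% lower, or 18.7% in either direction. Groups without overlap were found for 4 of the 5 members, 2 higher and 2 lower, and for 37.0% of all genes tested (18.6% higher and 18.3% lower). An unadjusted p below 0.05 was found for the same 4 members and for 33.8% of all genes.

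Summed FPKM were 1126780 to 1168470 in vehicle and 1217970 to 1249690 in sulfatide libraries, so the sums lay apart by group, and rescaling each library to TPM was among the alternatives tried. In each library, 10254 to 10350 genes reached 1 FPKM. Counts were not given, so absolute depth is unknown, and relative depth estimated from low values was 0.850 to 1.07 of vehicle replicate 2. All 8 macrophage markers were tested and none was called, with a median log2 fold change, sulfatide minus vehicle, of 0.069. Adgre1 was at 492 to 570 FPKM in vehicle and 385 to 502 in sulfatide libraries, 1.23-fold lower in the mean (limma adjusted p = 0.0888). Fcgr1 was 1.61-fold lower (0.129), and for both genes the groups overlapped. Of 8 markers of resident alveolar macrophages, 6 stayed below 1 FPKM in each library, Siglecf and Car4 among them. Siglecf was at 0.08 to 0.26 FPKM in vehicle and 0.67 to 0.9 in sulfatide libraries and was not tested. The 2 tested markers, Chil3 (19.32 to 45.62 FPKM over all libraries) and Ear2 (2.19 to 3.35 FPKM), were not called. In bulk RNA of this kind, fewer cells of a type and less RNA per cell cannot be told apart.

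Nos2 (chromosome 11, 78920787 to 78960254, mm10, plus strand) was at 72.42, 49.76 and 39.27 FPKM in vehicle replicates 2, 3 and 4, and at 59.65, 53.24 and 46.02 FPKM in sulfatide replicates 1, 2 and 3. All sulfatide libraries lay inside the range of the vehicle libraries. The log2 fold change, given throughout as sulfatide minus vehicle after adding 1 FPKM, was 0.015 ± 0.20 (SE, n = 3 per group, limma adjusted p = 0.969), with a 95% interval of -0.43 to 0.46. Its sign was not stable: the value was -0.095 after rescaling to TPM and between -0.19 and 0.25 with 1 library left out. The other synthases were at the floor. Nos1, the neuronal form, was listed at 0 in all 6 libraries, and Nos3, the endothelial form, did not exceed 0.14 FPKM, so nearly all synthase transcript was Nos2.

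Arg1 (chromosome 10, 24915221 to 24927484, minus strand) was at 15.02, 7.26 and 12.65 FPKM in vehicle replicates 2, 3 and 4. It was at 20.13, 43.86 and 30.62 FPKM in sulfatide replicates 1, 2 and 3. The groups did not overlap, but they came near each other at vehicle replicate 2 and sulfatide replicate 1, and the sulfatide libraries spread over a wide range. The log2 fold change was 1.35 ± 0.30 (SE, limma adjusted p = 0.0149), with a 95% interval of 0.68 to 2.02. Arg1 passed in each of the 13 alternatives, at adjusted p of 0.00226 to 0.0493.

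Arg2 (chromosome 12, 79130777 to 79156301, plus strand) was at 8.22, 9.63 and 10.02 FPKM in vehicle replicates 2, 3 and 4. It was at 24.45, 27.12 and 31.86 FPKM in sulfatide replicates 1, 2 and 3. Its libraries lay close together within each group and far apart between groups. The log2 fold change was 1.48 ± 0.13 (SE, limma adjusted p = 0.000114), with a 95% interval of 1.20 to 1.76, and Arg2 ranked 76th by p among the 10405 genes. Of the 5 members it had the largest fold change and the smallest standard error.

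Markers of other cells that the lavage could hold were read beside the arginases. Summed FPKM of the 11 neutrophil markers were 174 to 240 in vehicle and 461 to 635 in sulfatide libraries, and S100a8 alone was at 105 ± 11.7 and 419 ± 55.3 FPKM (SD). Of these markers 6 were tested, with a median log2 fold change of 0.089, and 2 rose, S100a8 (3.99-fold, limma adjusted p = 3.33e-05) and Mmp8 (1.81-fold, 0.0439, with overlapping groups). The other tested markers did not pass, with log2 fold changes of 0.33 for Csf3r, -0.15 for S100a9, -0.24 for Ngp and -0.45 for Camp, whose groups did not overlap. Ly6g, Cxcr2 and Retnlg did not exceed 0.45 FPKM in any library. Sulfatide replicate 2, which had the highest Arg1, also had the highest S100a8 (470.74 FPKM) and Mmp8 (51.8 FPKM). The macrophage markers Cd68 (700.74 FPKM), C1qb (1927.85 FPKM), Mertk (4.22 FPKM) and Lyz2 were highest in that library too. Adgre1, Csf1r, Fcgr1 and C1qa were highest in other libraries. The part of neutrophil transcripts in the Arg1 and Arg2 values was not tested. Group 2 innate lymphoid cells, which can express Arg1, had summed markers of 4.48 to 6.98 FPKM in vehicle and 2.31 to 3.38 in sulfatide libraries, with Il5 and Il13 listed at 0 and Il7r, the 1 marker of 7 that was tested, called lower (adjusted p = 0.0318). Of 8 lung epithelium markers 7 stayed below 1 FPKM in each library, as did all 6 endothelial markers and all 9 T, NKT and NK cell markers. Of 7 dendritic cell markers, which summed to 2.33 to 2.90 FPKM in vehicle and 2.67 to 3.42 in sulfatide libraries, 5 stayed below 1 FPKM in each library. Cd209a was listed at 0 in all vehicle libraries and at 1.19 to 2.59 FPKM in sulfatide libraries (limma adjusted p = 0.000685), and Ccr7 was 3.52-fold lower (0.00348). Each passed the filter on low values only through the group where it was higher. The filter thus favoured a call for both, and no conclusion on dendritic cells is drawn from them. Fibroblast and mural cell markers summed to 58.6 to 76.2 FPKM in vehicle and 53.0 to 69.2 in sulfatide libraries, with 1 of 6 tested called, Pdgfrb, which was lower.

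Because Arg1 and Arg2 are related genes, their sequences were compared for stretches that reads could not tell apart. The coding sequences were 65.0% identical over 963 aligned bases (GENCODE M21), and the longest stretch that both held was 12 bases, against reads of 150 bases per the labels. The stretch is shown as the longest exact match of the 2 coding sequences. Untranslated regions, which reads can also cover, were not compared.
Arg1 and Arg2 shared coding stretch (chr10:24916801-24916812, shown on the coding strand): gtgtacattggc
The Nos2 coding sequence shared at most 22 bases in a row with Nos3 and 20 with Nos1, and Slc7a2 shared at most 23 with Slc7a1.

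**Figure D1:**
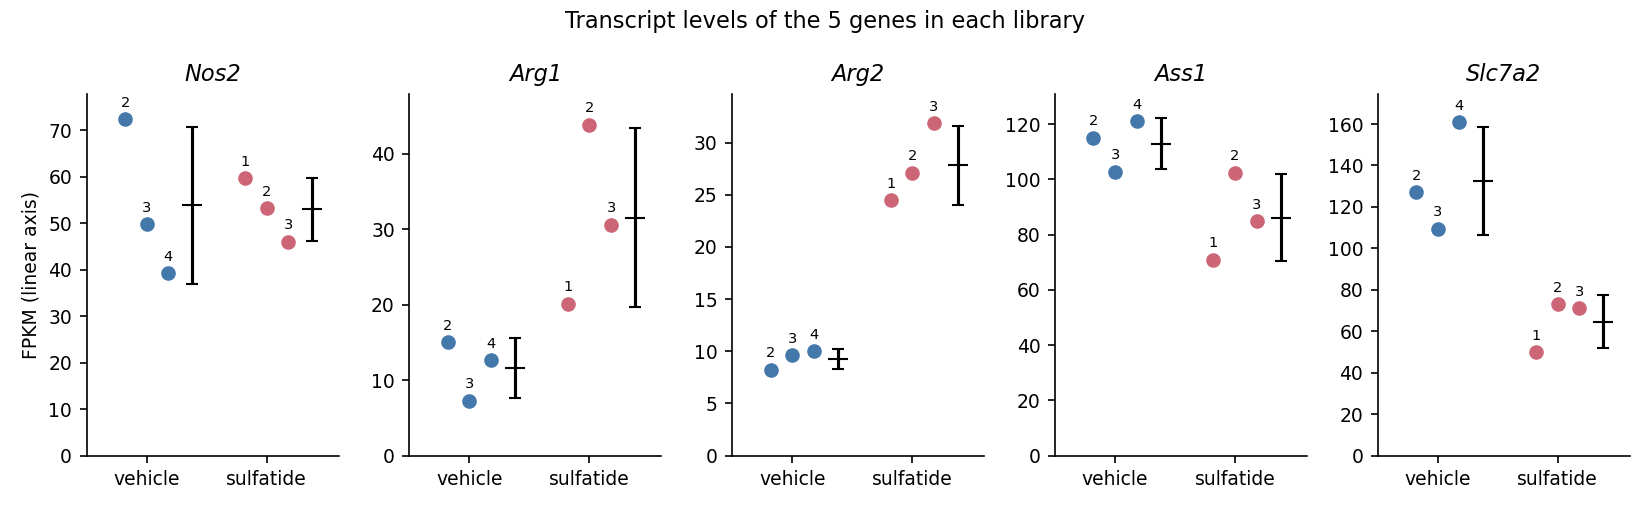
FPKM (linear axis from 0) of Nos2, Arg1, Arg2, Ass1 and Slc7a2 in each library, with points numbered by replicate and the group mean ± SD (n = 3) beside them. Arg1 and Arg2 were higher and Slc7a2 and Ass1 lower in all sulfatide libraries than in any vehicle library, while the Nos2 values of the groups overlapped.

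Setting Arg1 against Nos2 within each library removes any factor by which a whole library is scaled. The ratio of their FPKM was 0.207, 0.146 and 0.322 in vehicle replicates 2, 3 and 4. It was 0.337, 0.824 and 0.665 in sulfatide replicates 1, 2 and 3. The lowest sulfatide library thus lay just above the highest vehicle library. The mean ratio of the vehicle libraries was 0.225 ± 0.0894 and that of the sulfatide libraries 0.609 ± 0.248 (SD, n = 3 each), a 2.70-fold difference. On the log2 scale with a pseudocount of 1, the difference was 1.34 (exact permutation test, two-sided p = 0.1, and 0.2 adjusted over the 2 ratios tested). A comparison of 3 against 3 libraries cannot give a p below 0.1, so the ratio could not pass the threshold in this design. Nos2 stayed above Arg1 in all 6 libraries. The Arg2 to Nos2 ratio, which was not tested, was 0.114 to 0.255 in vehicle and 0.410 to 0.692 in sulfatide libraries, again without overlap.

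The proportion of Arg1 to Arg2 varied more within the groups than between them. Their FPKM ratio was 1.83, 0.754 and 1.26 in the vehicle libraries, by replicate number, and 0.823, 1.62 and 0.961 in the sulfatide libraries. These ranges overlapped (log2 difference -0.13, exact permutation test, two-sided p = 0.8, also 0.8 adjusted), with SDs of 0.583 in vehicle and 0.494 in sulfatide on that scale. Summed arginase transcript was 23.24, 16.89 and 22.67 FPKM in the vehicle libraries and 44.58, 70.98 and 62.48 FPKM in the sulfatide libraries, in the same order of replicates. The sum was below Nos2 in every vehicle library, at 0.321 to 0.577 of its level. In sulfatide replicates 2 and 3 it was above Nos2 (1.33 and 1.36 times its level), and in sulfatide replicate 1 it was below (0.747). No test was run on the summed ratio.

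**Figure D2:**
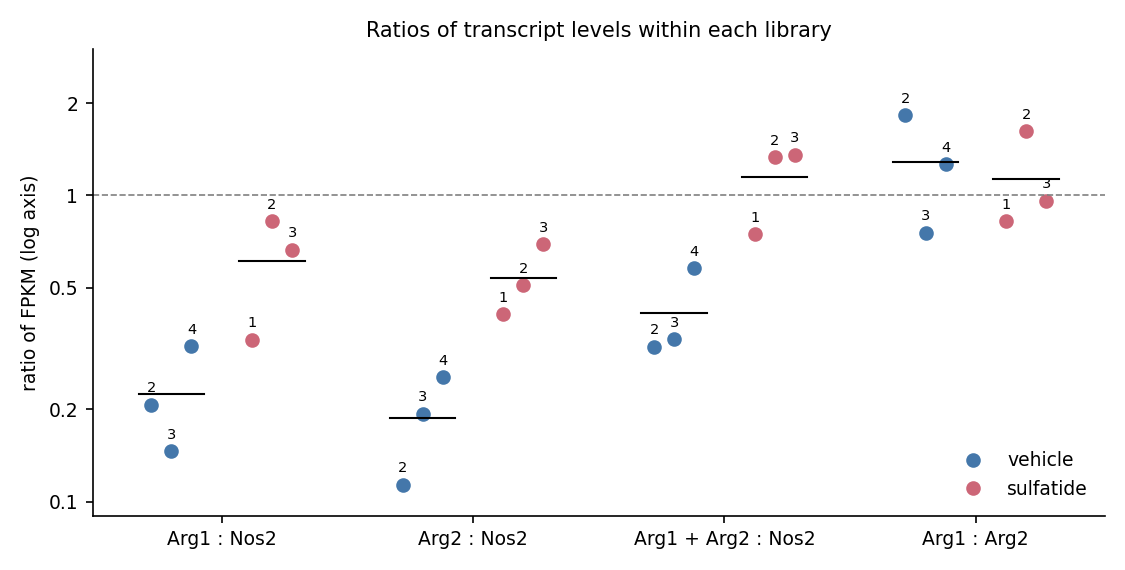
Ratios of FPKM within each library (log axis, dashed line at equal levels), with points numbered by replicate and a bar at the group mean. The Arg1 to Nos2 ratio was 0.146 to 0.322 in vehicle and 0.337 to 0.824 in sulfatide libraries, and the Arg1 to Arg2 ratio overlapped between groups.

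Of the cationic amino acid transporter genes Slc7a1, Slc7a2 and Slc7a3, the first 2 were lower in sulfatide, and Slc7a3 did not exceed 0.28 FPKM and was not tested. Slc7a2 (chromosome 8, 40862396 to 40922308, plus strand) was at 127.00, 109.49 and 160.86 FPKM in vehicle replicates 2, 3 and 4. It was at 49.81, 73.07 and 71.07 FPKM in sulfatide replicates 1, 2 and 3. The highest sulfatide library was well below the lowest vehicle library. The log2 fold change was -1.03 ± 0.17 (SE, limma adjusted p = 0.00401), and Slc7a2 passed in each of the 13 alternatives. Slc7a1, the widely expressed cationic amino acid transporter, was far less abundant and fell by a like factor, from 6.69 ± 1.16 to 3.24 ± 1.23 FPKM (SD, 2.06-fold, limma adjusted p = 0.0178). Slc7a2 made up 93.9 to 96.5% of the summed FPKM of Slc7a1, Slc7a2 and Slc7a3 in each library.

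Slc7a2 is known to make transporters of high and of low affinity for arginine by use of alternative exons, which the table joins in 1 row. In GENCODE M21 the 4 full coding transcripts fell into 2 pairs that differed in coding exon 6. The exons are shown because the fall of Slc7a2 cannot be divided between these forms here. Both are given on the plus strand in mm10, with capitals at the bases that differ between them or lie in a gap of their alignment (84 of 137 aligned bases were identical).
Slc7a2 upstream exon (chr8:40908056-40908195, used by 2 of the transcripts): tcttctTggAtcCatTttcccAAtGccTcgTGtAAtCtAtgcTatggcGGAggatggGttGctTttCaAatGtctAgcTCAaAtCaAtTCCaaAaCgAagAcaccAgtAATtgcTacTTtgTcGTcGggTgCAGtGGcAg
Slc7a2 downstream exon (chr8:40908398-40908534, used by the other 2): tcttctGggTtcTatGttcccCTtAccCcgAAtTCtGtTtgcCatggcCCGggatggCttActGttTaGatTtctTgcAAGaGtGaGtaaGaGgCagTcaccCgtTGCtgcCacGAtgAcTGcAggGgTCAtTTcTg

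Of the 10 genes of the arginine transport list, 8 were tested, 3 were lower and 1 was higher (median log2 fold change -0.036, and 0.037 over all genes tested). Over all genes tested, 8.31% were called higher and 10.4% lower. The counts of the lists below stand beside the same shares, and no set test was run on these short lists. Beside Slc7a2 and Slc7a1, Slc3a2, the heavy chain that partners the light chains Slc7a6 and Slc7a7, fell 1.24-fold (896 ± 80.1 to 721 ± 26.6 FPKM, limma adjusted p = 0.0399). Slc66a1, which exports cationic amino acids from lysosomes, rose 1.32-fold (22.7 ± 1.18 to 29.8 ± 2.20 FPKM, adjusted p = 0.026). The light chains themselves did not pass (Slc7a6 log2 fold change 0.22 ± 0.12, Slc7a7 -0.13 ± 0.10). Slc7a1 lost its call without vehicle replicate 2 or 4 or sulfatide replicate 1 or 3 (adjusted p = 0.0548 to 0.0741) and with no filter (0.0537). Slc66a1 lost it without vehicle replicate 2 or sulfatide replicate 1 or 3 (0.0696 to 0.108) and after rescaling to TPM (0.0775), and Slc3a2 without any library but vehicle replicate 3 (0.0517 to 0.131) and with no filter (0.069).

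Resynthesis of arginine from citrulline showed no called change. Ass1 (chromosome 2, 31470207 to 31520672, plus strand) was at 115.06, 102.74 and 120.99 FPKM in vehicle replicates 2, 3 and 4. It was at 70.96, 102.48 and 84.79 FPKM in sulfatide replicates 1, 2 and 3. The groups did not overlap, yet sulfatide replicate 2 and vehicle replicate 3 were almost level. The log2 fold change was -0.40 ± 0.13 (SE, limma adjusted p = 0.0659), with a 95% interval of -0.70 to -0.10. Ass1 passed without vehicle replicate 3 (adjusted p = 0.0407), without sulfatide replicate 2 (0.0205) and after rescaling to TPM (0.0349), and in none of the other 10 alternatives. Asl, the lyase of the next step, did not pass (62.2 ± 3.88 FPKM in vehicle, 67.7 ± 3.50 in sulfatide, adjusted p = 0.37).

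**Figure D3:**
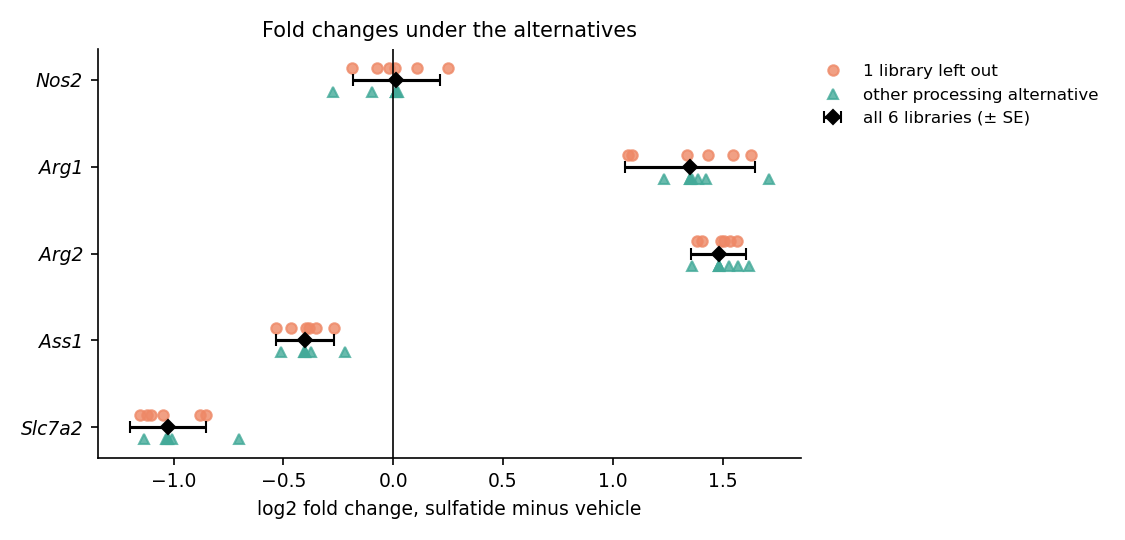
Log2 fold change (sulfatide minus vehicle) of the 5 genes with all libraries (black, ± SE), with 1 library left out (circles) and under the other processing alternatives (triangles). Arg1 and Arg2 stayed above 0 and Slc7a2 and Ass1 below 0 throughout, while Nos2 lay on either side of 0, from -0.27 to 0.25.

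The other genes of the urea cycle were at the floor. Otc and Cps1, which carry out the mitochondrial steps in liver, and Agmat, which splits agmatine, were listed at 0 in all 6 libraries. Nags did not exceed 0.06 FPKM. Of the 8 genes of the list 4 were tested, 2 rose (Arg1 and Arg2) and none fell.

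Ranked by level in vehicle libraries, Slc7a2 (132 ± 26.1 FPKM) and Ass1 (113 ± 9.31) came first and overlapped, followed by Nos2 (53.8 ± 16.9) and then by Arg1 (11.6 ± 3.98) and Arg2 (9.29 ± 0.947), which overlapped (SD, n = 3 each). In sulfatide libraries the order was Ass1 (86.1 ± 15.8), Slc7a2 (64.7 ± 12.9), Nos2 (53.0 ± 6.82), Arg1 (31.5 ± 11.9) and Arg2 (27.8 ± 3.75). There each gene overlapped its neighbour in the order, except Nos2 and Arg1, whose closest values were 46.02 and 43.86 FPKM.

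Nitric oxide synthase needs tetrahydrobiopterin, and the enzyme that starts its synthesis was lower in sulfatide. Gch1, which encodes GTP cyclohydrolase and sets the rate of this pathway, was at 256.9, 248.22 and 229.6 FPKM in vehicle replicates 2, 3 and 4. It was at 106.6, 106.25 and 107.79 FPKM in sulfatide replicates 1, 2 and 3. Both groups were tight and lay far apart, a 2.29-fold fall (log2 fold change -1.19 ± 0.08, SE, limma adjusted p = 4.24e-05) that passed in each of the 13 alternatives. The later enzymes of the pathway were not called: Pts was at -0.13 ± 0.20, Spr at 0.41 ± 0.13 (adjusted p = 0.0564) and the recycling enzyme Qdpr at 0.19 ± 0.11 on the log2 scale. The amount of Nos2 transcript per Gch1 transcript was 0.171 to 0.282 in vehicle and 0.427 to 0.560 in sulfatide libraries, a difference that was not tested.

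Of the 16 genes of the synthase and cofactor list 12 were tested, 1 fell (Gch1) and 1 rose (Calm2, a calmodulin gene, 1.30-fold, limma adjusted p = 0.0387), with a median log2 fold change of 0.14. Calm2 did not pass without vehicle replicate 2 or 4 or sulfatide replicate 1 or 3 (0.0887 to 0.157), after rescaling to TPM (0.0828) or with no filter (0.0788). Of 7 genes of nitric oxide sensing and removal 3 were tested, and Adh5, which breaks down S-nitrosoglutathione, rose 1.23-fold (114 ± 2.04 to 140.5 ± 6.79 FPKM, adjusted p = 0.0308). It did not pass without vehicle replicate 2 or 4 or sulfatide replicate 1 or 3 (0.0727 to 0.128) or after rescaling to TPM (0.106). The subunits of the nitric oxide receptor guanylate cyclase, Gucy1a1, Gucy1a2 and Gucy1b1, did not exceed 0.2 FPKM in any library.

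Downstream of arginase, ornithine feeds polyamines and proline, and every called difference among these genes was under 2-fold. Odc1, ornithine decarboxylase, the entry to polyamines, was at 60.68, 92.27 and 65.13 FPKM in vehicle replicates 2, 3 and 4, and at 118.21, 78.71 and 88.64 FPKM in sulfatide replicates 1, 2 and 3. Vehicle replicate 3 lay inside the sulfatide range, and the gene did not pass (log2 fold change 0.39 ± 0.18, SE, limma adjusted p = 0.174, but 0.0276 without vehicle replicate 3). Of the 20 polyamine genes 18 were tested, 4 rose and 1 fell, with a median log2 fold change of 0.19. The shares over all genes tested were 8.31% higher and 10.4% lower, and no set test was run on this list.

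The genes of the polyamine list that rose were Paox, Azin2, Oaz2 and Amd1. Paox, which oxidises acetylated polyamines back, was 1.86-fold higher (3.39 ± 0.265 to 6.30 ± 0.690 FPKM, limma adjusted p = 0.00348). Azin2, an antizyme inhibitor, was 1.68-fold higher, and Oaz2, an antizyme that restrains ornithine decarboxylase, 1.34-fold (76.4 ± 9.40 to 103 ± 5.34 FPKM, adjusted p = 0.0217). Amd1, which makes the aminopropyl donor, was 1.32-fold higher (adjusted p = 0.046) and shares much sequence with Amd2, so how fragments were shared out between those genes is not known. Sms, spermine synthase, was the gene that fell (32.0 ± 6.27 to 22.1 ± 0.786 FPKM, 1.45-fold, adjusted p = 0.0332). With 1 library left out, Paox passed in all 6 cases and Amd1 in 1, without vehicle replicate 3 (otherwise 0.0808 to 0.171). Azin2 did not pass without vehicle replicate 2 or sulfatide replicate 1 (0.083 to 0.0848), nor Oaz2 without vehicle replicate 2 or 4 or sulfatide replicate 1 or 3 (0.071 to 0.101), nor Sms without vehicle replicate 2 or any sulfatide library (0.0648 to 0.0956) or with no filter (0.0683). Amd1 did not pass with no filter (0.0806) or after rescaling to TPM (0.0998).

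Of the 6 tested genes that turn ornithine into proline or glutamate, Pycr1, the mitochondrial reductase that makes proline, fell 1.87-fold at a low level (2.10 ± 0.310 to 1.12 ± 0.232 FPKM, limma adjusted p = 0.0284) and none rose. It passed with 1 library left out only without sulfatide replicate 1, and otherwise had an adjusted p of 0.0513 to 0.097. Oat, ornithine aminotransferase, did not pass (log2 fold change 0.15 ± 0.16). Of 4 tested creatine genes 1 rose, Gamt (1.33-fold, adjusted p = 0.0263), which did not pass without vehicle replicate 2 or 4 or sulfatide replicate 1 or 3 (0.0661 to 0.104) or after rescaling to TPM (0.0667). None of the 8 tested protein arginine methyltransferases passed. Over these 8 lists, 58 genes other than the members were tested, 8 were higher and 5 lower, 22.4% in all, against 18.7% of all genes tested.

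**Figure D4:**
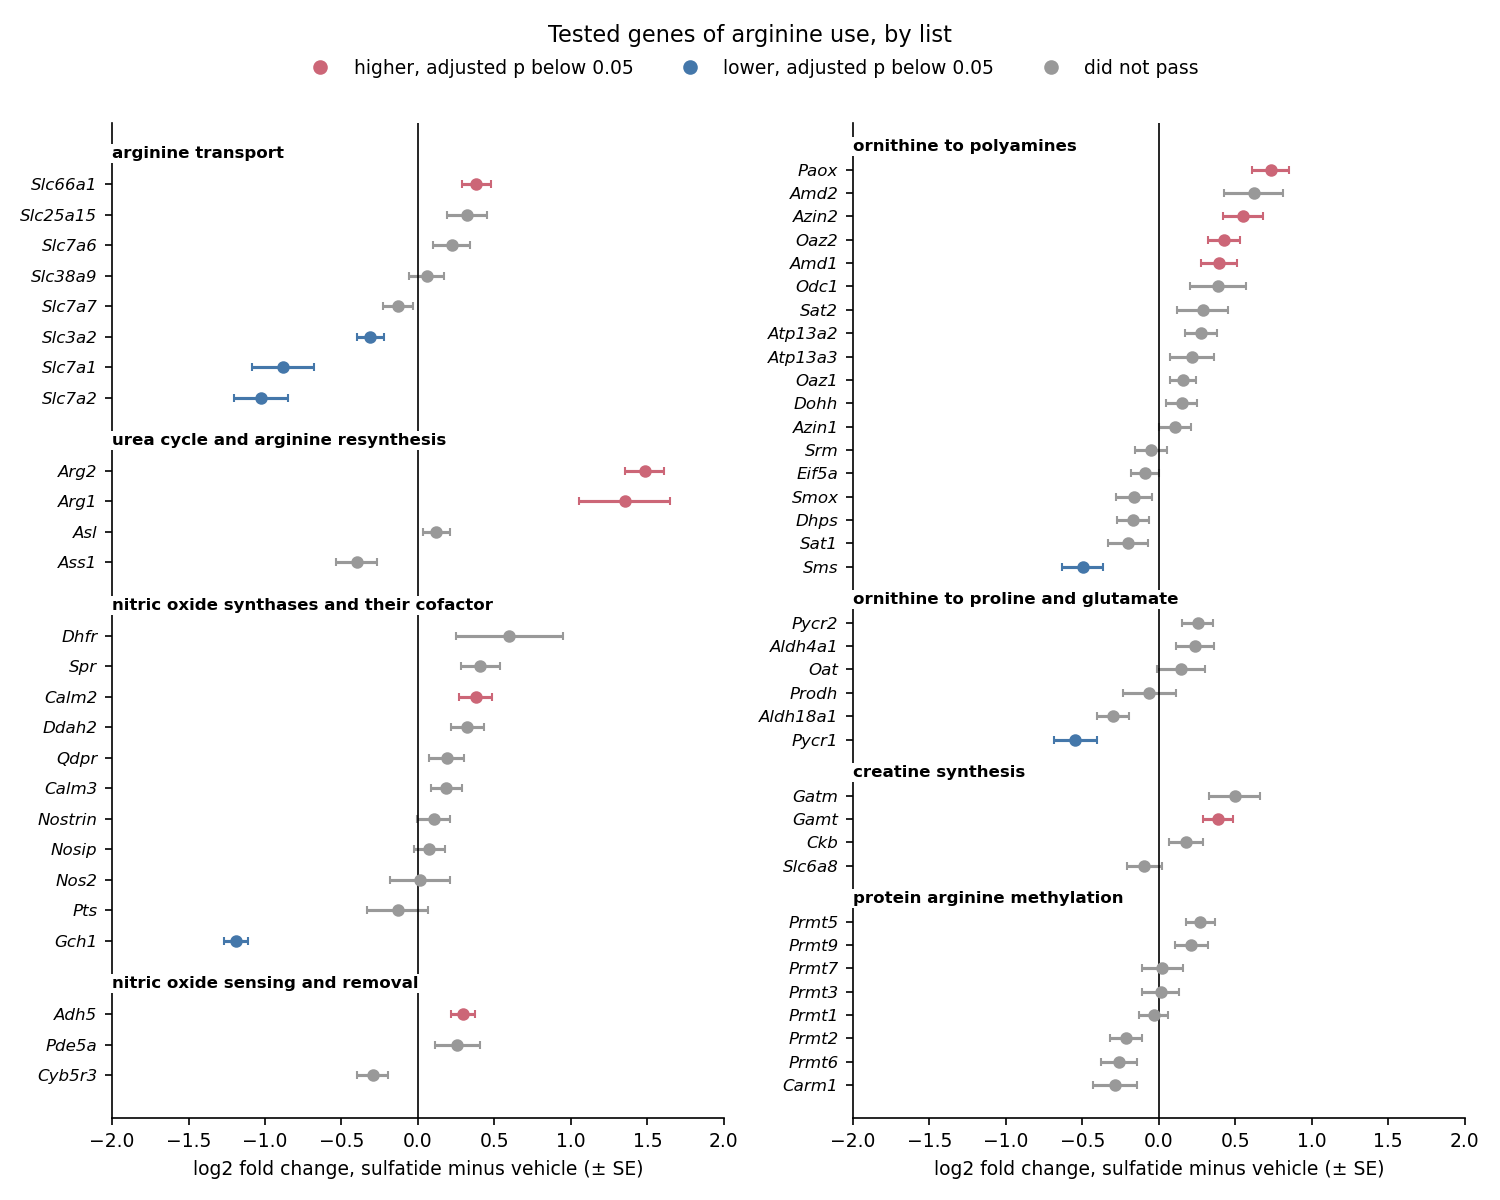
Log2 fold change (sulfatide minus vehicle, ± SE, on the log2(FPKM + 1) scale) of tested genes of arginine transport and use, grouped by list and coloured by call. Arg1 and Arg2 had the largest rises, and Gch1, Slc7a2 and Slc7a1 the largest falls, among the genes shown.

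Of 8 tested transcription factors known to drive Nos2, 4 were called lower and 4 were not called (median log2 fold change -0.33). Over all genes tested, 8.31% were called higher and 10.4% lower, and no set test was run on this short list. Among those lower, Nfkb1, a subunit of NF-kappa B, fell 2.40-fold (limma adjusted p = 7.13e-05), Irf1 1.64-fold (0.014) and Rela 1.31-fold (0.016). Hif1a (log2 fold change 0.10 ± 0.12), Irf8 (0.18 ± 0.10), Jun (-0.15 ± 0.11) and Fos (-0.27 ± 0.27) did not pass. Irf1 did not pass without vehicle replicate 2 (0.0659), nor Rela without vehicle replicate 2 or 4 or sulfatide replicate 1 or 3 (0.056 to 0.0644).

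Among 9 tested receptors and transcription factors known to drive Arg1, 1 rose and 2 fell (median log2 fold change -0.0085). Over all genes tested, 8.31% were called higher and 10.4% lower, and a list of 9 is too short to set apart from these shares. Il4ra, a receptor chain for interleukin-4 and interleukin-13, was at 88.51, 65.62 and 93.35 FPKM in vehicle replicates 2, 3 and 4 and at 160.27, 188.81 and 180.22 FPKM in sulfatide replicates 1, 2 and 3 (limma adjusted p = 0.000711). Its groups were far apart. Stat6, the factor that this receptor activates, did not pass (59.9 ± 6.94 and 61.6 ± 5.99 FPKM, a log2 difference of 0.041 ± 0.11). Cebpb, which binds the Arg1 enhancer, fell 1.44-fold (adjusted p = 0.0146, and 0.0503 and 0.059 without sulfatide replicates 1 and 3), and Il10ra fell 1.54-fold (0.00165).

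Genes that followed Arg1 most closely over the 6 libraries were Ecm1, an extracellular matrix protein, Slpi, a secreted protease inhibitor, Clec4a2, a lectin receptor, Mmp19, a matrix metalloproteinase, and Bst1, a cell surface ADP-ribosyl cyclase. Pearson's r of their log2(FPKM + 1) values with Arg1 was 0.999, 0.989, 0.988, 0.984 and 0.978. They were the 5 highest of 1465 genes with a mean of at least 5 FPKM and an SD of at least 0.3, and with 6 libraries in 2 groups such values describe these libraries only. Ecm1 was at 82.54, 59.78 and 78.69 FPKM in vehicle replicates 2, 3 and 4 and at 95.59, 139.12 and 116.24 FPKM in sulfatide replicates 1, 2 and 3, the same order of libraries as Arg1. For Nos2 the 5 closest genes were Srp54b (r = 0.974), Fam177a2 (0.827), Pf4 (0.763), Gstm2 (0.751) and Gm10145 (0.734), none of which was called between the groups.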

How the data were processed

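The authors deposited 1 table of FPKM values, rounded to 2 decimals, made from strand-specific poly(A) libraries per the labels' protocols, on build mm10 per the submitters' processing notes. The sources used here do not give the aligner, counting program, annotation or strand setting. Another 3 value columns, whose names match none of the samples, were left out.

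Genes at 1 FPKM or more in at least 3 libraries were analysed as log2(FPKM + 1) with limma 3.58.1 in R 4.3.3 (lmFit, eBayes with an intensity trend, two-sided, Benjamini-Hochberg over all 10405 genes tested, called below 0.05). The scale understates changes of low genes. The fit was tested on simulated data. Folds are ratios of mean FPKM. Ratios within libraries were compared by an exact permutation test. Depth is unknown, so no counting interval is given.

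The members and lists were chosen with earlier results of these data known. Named were the members, 8 genes fixed by name, up to 4 called genes of smallest p per list, and the 5 genes most correlated with Arg1 and with Nos2. The remaining genes named were chosen after their values were seen, Amd1 among them. Of the list genes only Pycr3 had no match in the table, and some entered the counts but are not reported here. Positions and coding sequences are from GENCODE M21 (mm10), aligned with Biopython 1.88.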

Additional observations from a re-analysis of the deposited data

How the results depend on the processing

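Each result was recomputed with a pseudocount of 0.1 or 0.5 FPKM, without the filter or with one of 5 FPKM, as TPM, after quantile normalization, blocked by replicate number, and without each library. Arg1, Arg2 and Slc7a2 kept their direction and their call in all 13.

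Nos2 changed sign after rescaling to TPM (-0.095), with the block (-0.27) and without vehicle replicate 3 (-0.019), vehicle replicate 4 (-0.19) or sulfatide replicate 1 (-0.074), within -0.19 to 0.25 over the omissions, and never passed. Ass1 was called after rescaling (-0.51), without vehicle replicate 3 (-0.47) and without sulfatide replicate 2 (-0.53), each of which makes 2 members lower in place of 1, and it lay between -0.53 and -0.27 over all 6 omissions. The Arg1 to Nos2 difference was 1.08 to 1.70 (log2) over the omissions and 1.98 with the block, which compares replicates 2 and 3 only. The Arg1 to Arg2 difference changed sign when vehicle replicate 2 (0.144) or sulfatide replicate 1 (0.0619) was omitted and with the block (0.0926), and lay between -0.44 and 0.14 over the omissions.

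Over all genes, 865 were higher and 1078 lower. Higher genes were 522 with no filter, 468 after rescaling (1516 lower, 23.6% higher in place of 44.5%) and 297 with the block (635 lower), and 268 to 1421 higher and 642 to 1135 lower over the omissions. Of the 80 tested genes of all 10 pathway lists, members included, 11 were higher and 12 lower, 28.8% in all, against 18.7% of all genes tested. These counts were 6 higher after rescaling, 3 higher and 7 lower with the block, and 4 to 16 higher and 6 to 15 lower over the omissions. The causes of these shifts were not tested. Rescaling moved the median of all genes from 0.037 to -0.063.

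Only numbers 2 and 3 occur in both groups, so vehicle replicate 4 and sulfatide replicate 1 do not enter the differences estimated with the block. Deviations of same-numbered libraries correlated at 0.156 and -0.303, so the numbers were not taken to pair the samples, and the block left 1 residual degree of freedom. Among libraries of unlike number the highest value was 0.538, for vehicle replicate 3 with sulfatide replicate 1. The lowest was -0.399, for vehicle replicate 4 with sulfatide replicate 1. What these libraries share was not tested. With the block, Paox (adjusted p = 0.0646), Slc7a1 (0.0661), Cebpb (0.0704), Oaz2 (0.0895), Slc66a1 (0.106), Pycr1 (0.107), Irf1 (0.12), Azin2 (0.129), Rela (0.137), Adh5 (0.137), Calm2 (0.164), Gamt (0.188), Slc3a2 (0.216) and Amd1 (0.28) did not pass. How much of the spread of low genes is counting error cannot be told without counts.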
